A study of Mus musculus with 2 samples.

Results

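The translation initiation and elongation factors of mouse liver were compared between mice with acute kidney injury (AKI) and sham-operated mice. The members are all probe sets whose only annotated gene symbol begins with Eif or Eef followed by a number, which gave 155 probe sets of 58 genes, out of 18193 genes named on the array. Female wild-type C57BL/6 mice aged 8 weeks underwent either sham surgery or 30 min of warm ischemia of both kidneys with reperfusion, and livers were frozen 24 h later. Equal amounts of liver, 100 mg, from 3 mice of a group were pooled, and each pool was hybridised to 1 Affymetrix array. There is therefore 1 array per group, the spread between mice is unknown and no test between the groups can be made. "Higher" and "lower" below describe these 2 pools.

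Initiation factors bring the initiator tRNA and the small ribosomal subunit to the messenger RNA and select the start codon, and elongation factors then deliver aminoacyl-tRNA and move the ribosome along. The main points of control are eIF2, which the Eif2ak kinases phosphorylate in stress, and the cap-binding protein eIF4E, which the 4E-binding proteins hold back when mTORC1 is inactive. The liver exports most plasma proteins, and the level of translation in hepatocytes responds to feeding, amino acids and inflammation.

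Signals are the authors' values per probe set, and each difference is the log2(signal + 71.8) value of the AKI array less that of the sham array, so that weakly expressed genes show a difference smaller than the ratio of their signals. A pair of signals is given as sham first and AKI second, with the log2 difference in parentheses. A gene is represented by its probe set with the highest mean level. It was counted when that probe set reached the array median, 225.7 on the sham array or 231.8 on the AKI array, on at least 1 array. Of the 58 genes, 54 passed, and 36 of these were in the highest of 4 level classes of all genes. Probe sets of a gene are the only repeat measurement. Their SD within a gene was 0.66 in the highest level class and 0.90 in the lowest, and 0.59 over the 33 members with several probe sets past the filter. A difference of this size in a single gene cannot be told from disagreement between probe sets.

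The factors as a whole lay somewhat higher in the AKI pool. Leaving the Eif2ak kinases apart, 37 of 50 factor genes had a difference above 0, against 48.9% of all 13128 genes past the filter. Their median was 0.25, against -0.02 for all genes. At least 2-fold higher were 8 of the 50, or 16%, beside a background of 10.4%. In the other direction 0 of 50 passed 2-fold, beside a background of 12.4%. In the highest level class the backgrounds were 12.2% and 13.9%. Without the level filter the counts were 9 and 1 of 54, with a median of 0.23 and backgrounds of 9.23% and 10.3%. The 8 higher genes were Eif1a, Eif4a1, Eif1ad, Eif6, Eif4ebp1, Eif4e, Eif5 and Eef1akmt1. Eef1akmt1 and Eif5a2 passed the filter on the AKI array only, so Eef1akmt1, at 103.9 and 284.4, had to differ in order to be counted as it was.

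The absence of lower genes holds for the strongest probe set of each gene, not for every probe set. Of 119 factor probe sets past the filter, 18 (15.1%) passed 2-fold upwards and 10 (8.4%) downwards, beside 12% and 13.3% of all named probe sets. The 10 lower ones belonged to Eif2d, Eif4ebp2, Eef2k and Eef1akmt1. Those of Eef2k and Eef1akmt1 and 1 of Eif2d passed the filter on the sham array only. Among the higher ones, 1 each of Eef1akmt1, Eif3e, Eif3m, Eif4ebp1 and Eif4g3 passed it on the AKI array only. The filter thus helped to set the direction of these probe sets. Of 31 factor genes with several probe sets past the filter, 16 had a single direction over their probe sets. The background was 57.7%, so this share was not above that of all genes. The direction was upwards for 12 and downwards for 4, beside 1449 and 1520 of all 5149 such genes. Only Eif1a and Eif4ebp1 had every probe set past the filter at least 2-fold higher, beside a background of 3.59%. For Eif4ebp1, 1 of these probe sets passed the filter on the AKI array only. Among the 31 genes, 0 had every probe set at least 2-fold lower, beside 4.39%.

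**Figure D1:**
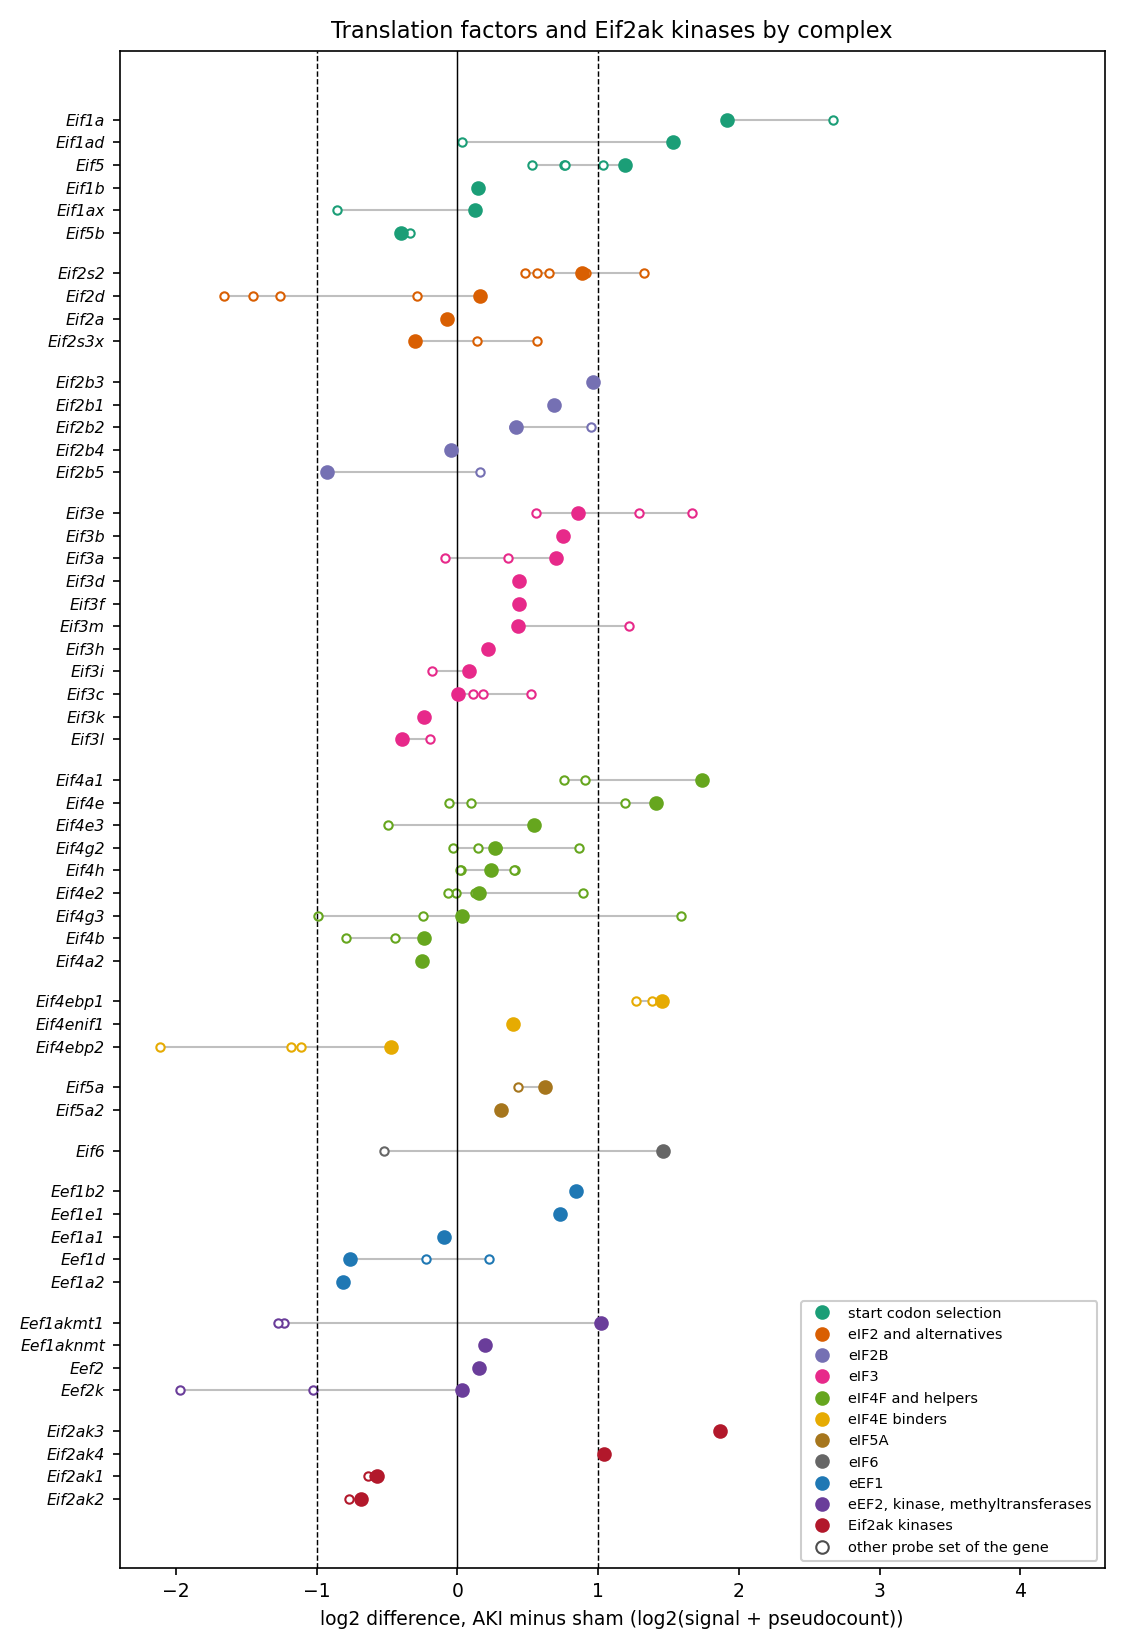
Log2 difference, AKI minus sham, of the 54 genes past the level filter, grouped by complex. Filled points are the probe set that represents the gene, open points its other probe sets past the filter, and dashed lines mark 2-fold. Filled points of 37 of the 50 factors lie above 0, while open points of Eif2d, Eif4ebp2, Eef2k and Eef1akmt1 lie below the lower dashed line.

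**Figure D2:**
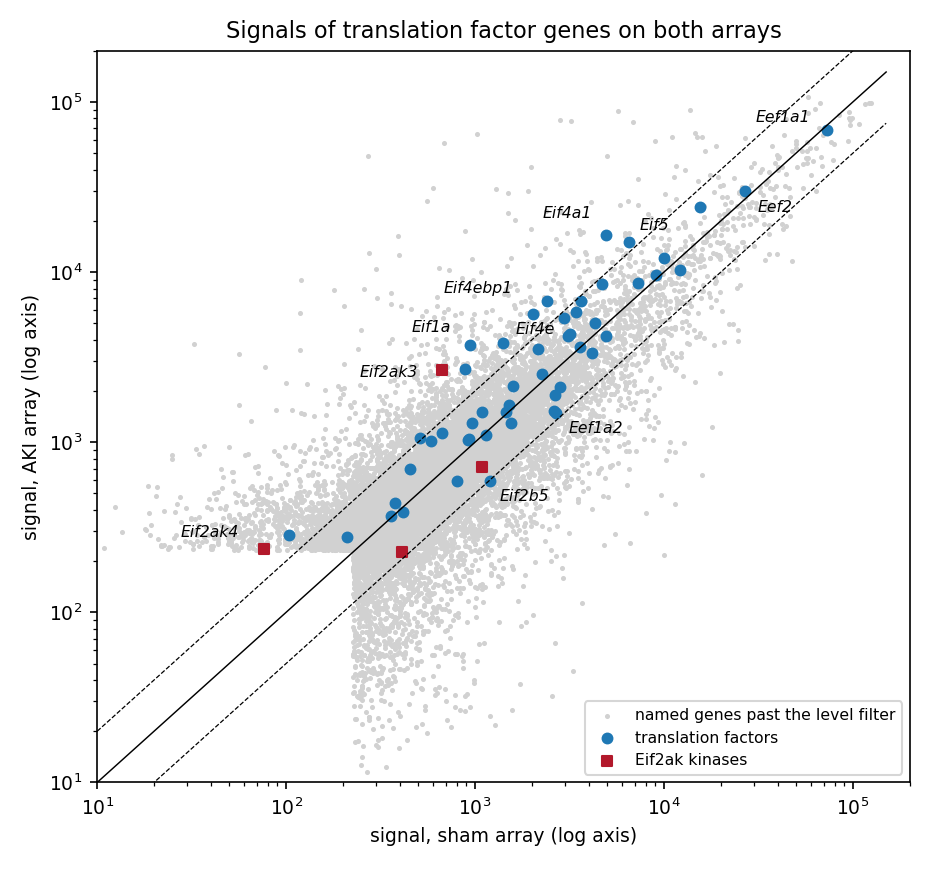
Signal of each gene on the sham array (horizontal, log axis) and the AKI array (vertical, log axis) for all named genes past the filter in grey, translation factors in blue and Eif2ak kinases in red. The solid line marks equal signals and the dashed lines a 2-fold ratio. Eif1a, Eif4a1, Eif4ebp1 and Eif2ak3 lie above the upper dashed line, and the strongly expressed Eef1a1 and Eef2 lie near the solid line.

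In the group formed around start codon selection, 3 of 6 genes were at least 2-fold higher and 0 lower, beside backgrounds of 10.4% and 12.4%. The median was 0.67. This group also takes in Eif1ad, which is among the 3 higher genes, and Eif5b, so its count and median are not those of start codon factors alone. Eif1a encodes eIF1A, which binds the small subunit and keeps it open for scanning, and it had the largest difference of all factors. The sham array gave a signal of 939.8 and the AKI array 3738.7 (1.91). Its other probe set went from 620.3 to 4320.9 (2.67), so both passed 2-fold. The X-linked Eif1ax encodes a nearly identical protein. It stood at 1517.8 and 1664.3 (0.13), and another of its probe sets was at -0.86. Both Eif1a probe sets carry a suffix for probes that may match several transcripts, and the share of signal from related sequences was not tested.

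Eif5, the protein that triggers GTP hydrolysis by eIF2 once the start codon is found, had signals of 6506 and 14930 (1.19). All 5 of its probe sets were above 0, from 0.53 to 1.19, so its probe sets shared a direction. Eif1ad, a relative of eIF1A, was at 882.1 and 2693.5 (1.54), but its second probe set showed almost no difference (0.04). Eif1b was at 0.15. Eif5b, the GTPase that joins the large subunit at the end of initiation, was the lowest of the group at 802.9 and 590.4 (-0.40).

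The eIF2 complex carries the initiator tRNA. Its beta subunit gene Eif2s2 had signals of 3631.3 and 6765.8 (0.88). All 6 of its probe sets were above 0, from 0.48 to 1.33. Eif2s3x, the gamma subunit, was at 4137.5 and 3349.1 (-0.30), while its other probe sets were at 0.14 and 0.56, so its direction is not settled. Eif2s3y, the Y-linked copy of the gamma subunit, had signals between 5.3 and 92.5 in both of its probe sets on both arrays, below the filter throughout, and the labels give the mice as female. Eif2a (-0.07) and Eif2d (0.16) encode alternative factors that can deliver initiator tRNA. Eif2d shows how far the choice of probe set matters: its 5 probe sets past the filter ran from -1.66 to 0.16, and 3 of them were at least 2-fold lower. Of these 3, 1 passed the filter on the sham array only.

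eIF2B is the exchange factor that recharges eIF2 with GTP, and phosphorylated eIF2 blocks it. Its 5 subunit genes had a median of 0.41 and 0 passed 2-fold, beside backgrounds of 10.4% higher and 12.4% lower. With 5 genes, a count of 0 says little beside these shares. The catalytic subunit gene Eif2b5 was the lowest of them, at 1195.1 and 594.8 (-0.93), although its second probe set was at 0.16. Eif2b3, which belongs to the same catalytic part, was at 508.4 and 1061.8 (0.97), and Eif2b1, a regulatory subunit, at 671.5 and 1127.3 (0.69). The 3 probe sets of Eif2b2 all lay above 0, from 0.40 to 0.95, and Eif2b4 was at -0.04. With a pseudocount of 1, Eif2b3 passed 2-fold upwards (1.06) and Eif2b5 downwards (-1.01).

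The 4 Eif2ak kinases phosphorylate eIF2 in response to different stresses, and they split evenly in direction. Eif2ak3 encodes PERK, the sensor of unfolded protein in the endoplasmic reticulum. The sham array gave 672 and the AKI array 2640.8 (1.87). Its other probe sets were near background on both arrays, so this value rests on 1 probe set. Eif2ak4 encodes GCN2, which senses uncharged tRNA. It was weak, at 76.7 and 234.7 (1.05). It reached the filter on the AKI array only, so it had to differ in order to be counted as it was.

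The other kinases were lower, each by less than 2-fold. Eif2ak1, the heme-regulated kinase, had signals of 1093.7 and 711.4 (-0.57), and its 3 probe sets past the filter were closely alike, from -0.64 to -0.57. Eif2ak2, the kinase PKR that double-stranded RNA activates, was at 408.9 and 227.1 (-0.69), with its second probe set at -0.77. It reached the filter on the sham array only.

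eIF3 is the large scaffold that holds the small subunit, eIF4F and the messenger RNA together. Its 11 measured subunit genes lay close together: 9 were above 0, the median was 0.43, and 0 of them passed 2-fold in either direction. The 2-fold backgrounds were 10.4% higher and 12.4% lower. Eif3e was the highest, at 4675.1 and 8531.8, a difference of 0.86. All 4 of its probe sets were above 0. Of the others 2 passed 2-fold, from 1468.6 to 3695.9 (1.29) and, in a weak one, from 29.9 to 251.5 (1.67). The weak one passed the filter on the AKI array only, so it had to differ to be counted. Eif3b (0.75) and Eif3a (0.70), which form the core with Eif3c, came next, and Eif3c itself was at 0.00 with its other probe sets up to 0.52. The subunits Eif3d, Eif3f, Eif3m and Eif3h were between 0.22 and 0.44, and Eif3i was at 0.08. The lowest were the partners Eif3k (-0.24) and Eif3l, at 2805.4 and 2123.6 (-0.39).

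eIF4F recruits ribosomes to capped messenger RNA. It consists of the cap-binding eIF4E, the helicase eIF4A and the scaffold eIF4G. The group counted here holds 9 measured genes of eIF4F together with its helpers and related genes. Of these, 2 were at least 2-fold higher and 0 lower, beside backgrounds of 10.4% and 12.4%, with a median of 0.24. Eif4a1, the main helicase gene, had signals of 4906.6 and 16539.2 (1.74), and its other probe sets were at 0.91 and 0.75. Eif4a2, a closely related helicase, stood at 12211.3 and 10263.9 (-0.25), which turned to 0.05 with centring on hybridization controls. Eif4e was at 1400 and 3840.5 (1.41). Its 4 probe sets fell into a high pair, the second at 1.19, and a pair near 0, at 0.10 and -0.06.

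The related cap-binding genes differed less. Eif4e2, a weak cap binder linked to repression of translation, was at 2251.1 and 2508.8 (0.15). Eif4e3 was at 450.1 and 691.3 (0.55), with its second probe set at -0.49. The scaffolds Eif4g2 (0.27) and Eif4g3 (0.03) and the helicase helpers Eif4h (0.24) and Eif4b (-0.24) all lay within 2-fold. All 3 probe sets of Eif4b were below 0 on the deposited scale, down to -0.79, and those of Eif4g3 ran from -0.99 to 1.59. Each end of that Eif4g3 range passed the filter on 1 array only, the one where it was higher.

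Eif4ebp1 and Eif4ebp2 encode the 4E-binding proteins that compete with eIF4G for eIF4E, and the pair differed in opposite directions. Eif4ebp1 went from 2413.1 on the sham array to 6721 on the AKI array (1.45). Its other probe sets went from 1262.5 to 3152.3 (1.27) and from 191.9 to 615.3 (1.38), so all 3 gave nearly the same difference. The weakest of the 3 passed the filter on the AKI array only. Eif4ebp2 had signals of 2635.1 and 1883.2 (-0.47) on its strongest probe set. Its other probe sets past the filter went from 2862.2 to 1284.7 (-1.11), from 2110.6 to 432.4 (-2.11) and from 1005.5 to 403.7 (-1.18). All 4 were below 0, and the strongest showed the smallest difference. Eif4enif1, which carries eIF4E into the nucleus, was at 0.40.

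**Figure D3:**
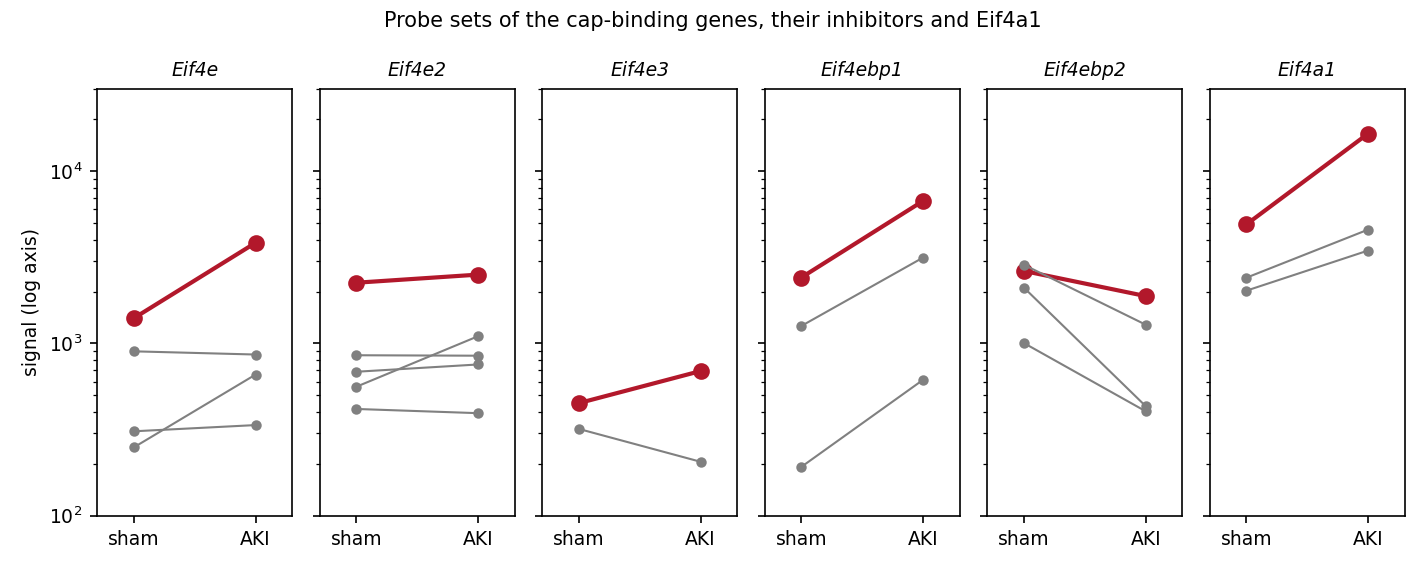
Signal (log axis) of each probe set past the filter on the sham and AKI arrays for 6 genes of the cap-binding machinery. Each line is a probe set and the red line is the one that represents the gene. All 3 lines of Eif4ebp1 and of Eif4a1 go up, all 4 of Eif4ebp2 go down, and those of Eif4e are mixed.

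The DNA before the start of these genes was searched, because several members differed in the same direction. The windows cover 250 bases before each RefSeq transcript start on GRCm38.p6, and 47 of the 58 genes had at least 1 window. The letters CACGTG, the E-box that Myc and related factors can bind and which reads the same on both strands, occurred in 11 of the 47 genes (23.4%), against 6.86% of all 27025 genes with a window. By window the shares were 21% and 6.02%. The comparison here takes in all genes with a window, whatever their level in liver, unlike the backgrounds above. The share among genes past the level filter was not tested. Of the 10 members at least 2-fold higher, kinases included, 6 had a window and 2 of these held the E-box. The windows of Eif4e, Eif4a1 and Eef2 are shown, because Eif4e and Eif4a1 were among the higher genes while Eef2, with the same letters, differed little. Eif4e lies at chr3:138527018-138527267 on the plus strand, Eif4a1 at chr11:69672424-69672673 on the minus strand and Eef2 at chr10:81176381-81176630 on the plus strand, each 5′ to 3′ with the E-box in capitals.
Eif4e: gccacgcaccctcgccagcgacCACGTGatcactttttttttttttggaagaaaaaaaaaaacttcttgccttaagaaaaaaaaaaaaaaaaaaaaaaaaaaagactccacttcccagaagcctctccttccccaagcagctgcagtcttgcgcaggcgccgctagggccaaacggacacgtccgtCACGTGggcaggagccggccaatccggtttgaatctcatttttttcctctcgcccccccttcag
Eif4a1: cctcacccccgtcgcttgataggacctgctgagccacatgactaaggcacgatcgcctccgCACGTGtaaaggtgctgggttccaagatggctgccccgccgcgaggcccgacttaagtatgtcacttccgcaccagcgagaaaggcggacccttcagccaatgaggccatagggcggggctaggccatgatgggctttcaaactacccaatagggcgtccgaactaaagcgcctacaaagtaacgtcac
Eef2: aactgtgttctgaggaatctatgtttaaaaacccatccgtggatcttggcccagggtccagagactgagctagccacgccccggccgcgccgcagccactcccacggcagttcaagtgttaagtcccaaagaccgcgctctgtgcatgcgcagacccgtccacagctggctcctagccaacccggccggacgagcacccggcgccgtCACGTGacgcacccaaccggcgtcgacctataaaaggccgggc
In the Eif4e window the E-boxes begin 228 and 64 bases before the start, in Eif4a1 189 bases and in Eef2 43 bases before it. The other 8 genes were Eef1aknmt, Eif5a2, Eif4h, Eif3k, Eif3f, Eef2k, Eif1b and Eif5a, with differences from -0.24 to 0.63. The cyclic AMP element TGACGTCA and the endoplasmic reticulum stress element were in 0 of the 47 genes, against 1.77% and 0.13% of all genes. The C/EBP-ATF element TGATGNAA was in Eef2k and Eif2s3x (4.26%, against 3.91% of all genes). Both strands were searched. The end of the stress element can share letters with the E-box, but it had no match in these windows. A match describes the letters only.

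Eif5a encodes eIF5A, the hypusine-bearing factor that helps ribosomes through difficult stretches. It was at 15559.8 and 24048.6 (0.63), with its other probe set at 0.43, and the related Eif5a2 was weak, at 211 and 278.6 (0.31). Eif6, which keeps large subunits from joining small ones too early, was at 2017.2 and 5682.5 (1.46). Its second probe set went the other way, from 585.2 to 386.5 (-0.52).

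The elongation factor genes, counted with the kinase and methyltransferases of these factors, lay on both sides of 0. Of the 9 measured genes 1, the methyltransferase gene Eef1akmt1, was at least 2-fold higher (11.1%) and 0 lower. The backgrounds were 10.4% and 12.4%, so the share of higher genes was near that of all genes. Eef1a1, which delivers aminoacyl-tRNA and is among the most abundant messages of the cell, was at 72804.2 and 68130.9 (-0.10). Eef1a2, the form known from muscle and neurons, was at 2673.6 and 1492.9 (-0.81). The exchange factor that recharges eEF1A had subunits on both sides of 0: Eef1b2 was at 2949.9 and 5355 (0.84) and Eef1d at 2623.9 and 1518.8 (-0.76), with other Eef1d probe sets at -0.22 and 0.23. Eef1e1, a part of the tRNA synthetase complex, was at 587 and 1023 (0.73). The median of these 5 genes was -0.10.

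Eef2, the translocase, was at 26831.6 and 29809.3 (0.15), so the main genes of both elongation steps, Eef1a1 and Eef2, differed by far less than the probe set error. Eef2k, the kinase that inhibits eEF2, was at 357.6 and 367.4 (0.03) on its strongest probe set. Its other probe sets went from 570.5 to 92.1 (-1.97) and from 324 to 122.6 (-1.03), so its probe sets did not agree. These other probe sets passed the filter on the sham array only. The methyltransferase gene Eef1akmt1 was at 1.02 on one probe set and at -1.28 and -1.23 on others. The first passed the filter on the AKI array only and the others on the sham array only. Eef1aknmt was at 0.20. Eef2kmt, Eef1akmt2 and Eif4a3 did not reach the filter, and Eif1, Eif2s1, Eif3g and Eif4g1 were not analysed here.

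**Figure D4:**
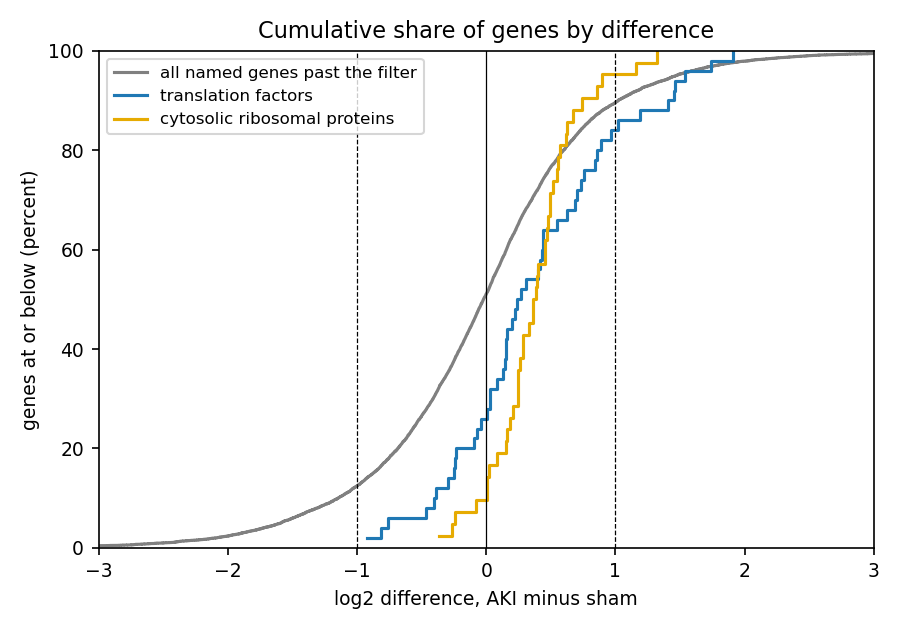
Cumulative share of genes (percent) at or below each log2 difference, AKI minus sham, for all named genes past the filter, the 50 translation factors and the 42 cytosolic ribosomal protein genes. Both coloured curves start to the right of the dashed line at 2-fold lower, where 12.4% of all genes lie.

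Other genes of protein synthesis were placed beside the factors. The backgrounds for these counts were 10.4% of all genes at least 2-fold higher and 12.4% lower. The 42 cytosolic ribosomal protein genes past the filter had a median of 0.38, and 38 of them lay above 0. Rpl12 (1.32) and Rps6 (1.16) were the 2 that passed 2-fold upwards, and 0 passed downwards. Rps6, at 138 and 397.9, passed the filter on the AKI array only, so it had to differ to be counted. The 6 termination and ribosome recycling genes had a median of 1.37, and 4 of them passed 2-fold upwards and 0 downwards. Etf1, the release factor that reads stop codons, was at 1635.9 and 4317.9 (1.36), Abce1, which splits the subunits apart, at 1412.4 and 3901 (1.42), and the rescue factor Pelo at 439.5 and 1441.4 (1.57). Every probe set of Etf1 and Abce1 past the filter was at least 2-fold higher. Gspt2 (1.38) passed the filter on the AKI array only, and the probe sets of the release factor partner Gspt1 ran from -1.24 to 1.12. Among other helpers of initiation 3 of 9 were higher, the mimic proteins Bzw2 (2.64) and Bzw1 (1.13) and the helicase Ddx3x (1.37), and 0 lower, with Mcts1 the lowest at -0.86. The probe sets of Bzw1 ran from -0.39 to 1.44 and those of Ddx3x from -0.27 to 1.37, while Bzw2 had 1 past the filter. The poly(A)-binding list had 0 of 6 past 2-fold, with Pabpc1 at 0.88. The enzymes that modify eEF2 and eIF5A had 0 of 6, with Dph3 the highest at 0.82.

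Genes of the pathways around both control points were counted next. Of 12 genes of the eIF2 phosphatase and ATF4 branch, 5 were at least 2-fold higher and 0 lower, beside backgrounds of 10.4% and 12.4%. They were Atf3 (2.97), Atf4 (1.96), the phosphatase subunit Ppp1r15a (1.85), Ddit3 (1.24) and Dnajc3 (1.23), which inhibits PERK. The 5 probe sets of Dnajc3 ran from 0.13 to 1.23, while those of Atf4 and Ddit3 were all at least 2-fold higher. Atf3, at 203.5 and 2090.2, passed the filter on the AKI array only. This branch acts on, or answers to, the same eIF2 that the Eif2ak kinases phosphorylate. A link between its differences and those of the kinases was not tested. Of 20 genes of mTORC1 and MAP kinase control, 5 were at least 2-fold lower. They were the mTOR inhibitor Deptor (-2.37), Rps6kb2 (-1.85), the eIF4A inhibitor Pdcd4 (-1.56), Tsc2 (-1.46) and Sesn3 (-1.32). Rps6kb2 passed the filter on the sham array only. Pdcd4 thus differed in the opposite direction to Eif4a1, the helicase it binds. The 2 higher genes of the list, Eif4ebp1 and Rps6, are a share near the background and are counted elsewhere too. The median of the list was -0.16 (0.14 with centring on hybridization controls).

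Factors for specialised translation were mostly lower. In the list of mitochondrial factors 4 of 7 were at least 2-fold lower and 0 higher, beside backgrounds of 12.4% and 10.4%. These were Mtif3, at 614.5 and 32.7 (-2.72), Gfm2 (-2.32), Tufm (-1.51) and Mtif2 (-1.50). The median was -1.50, but it was -0.63 with the mean of each gene's probe sets, since other probe sets of Tufm and Gfm2 were at 1.01 and 0.15. Without the filter it was -0.51 over 9 genes. Of 5 genes for selenocysteine insertion 4 were at least 2-fold lower and 0 higher, namely the elongation factor Eefsec, at 695.1 and 35.4 (-2.84), Sephs2 (-2.49), Sepsecs (-1.39) and Pstk (-1.04), and Secisbp2 was at 0.81. Mtif3, Gfm2 and Eefsec passed the filter on the sham array only.

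**Figure D5:**
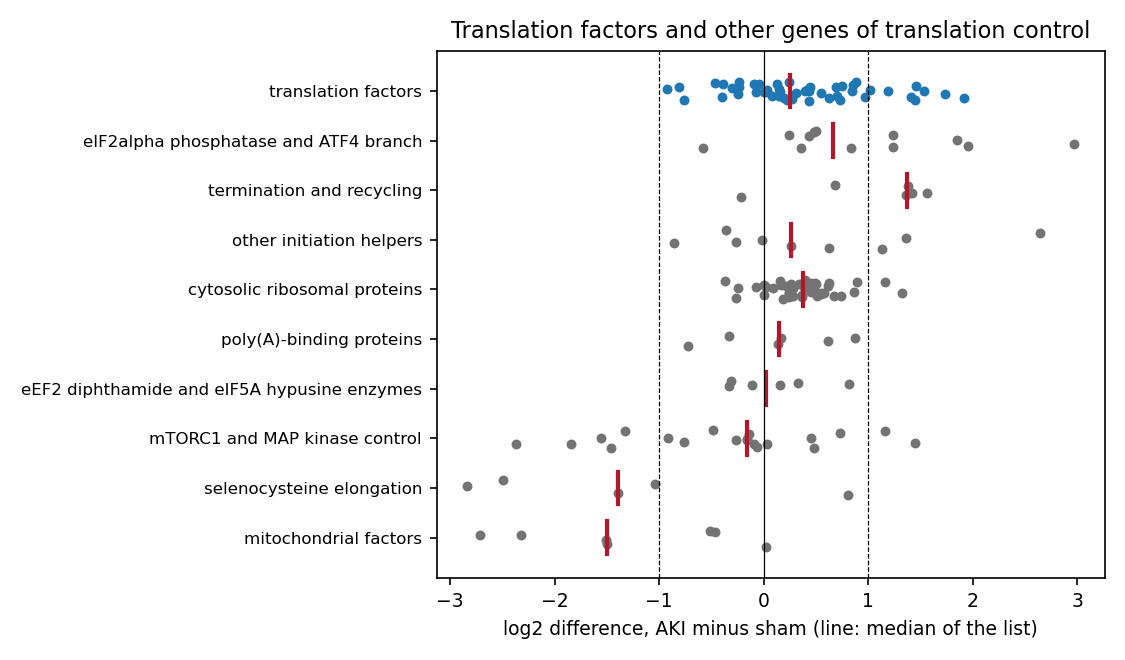
Log2 difference, AKI minus sham, of translation factors (blue) and of genes in 9 other lists of protein synthesis (grey), each point a gene past the filter and each red line the median of its list. Medians run from 1.37 for termination and recycling to -1.50 for mitochondrial factors, and that of the translation factors is 0.25.

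The counts of higher factors depend on how the arrays are scaled. Centring on 18 hybridization control probe sets added 0.30 to every difference. It gave 15 factors at least 2-fold higher and 0 lower, beside backgrounds of 16.8% and 8.12%, and among all genes past 2-fold it raised the share of higher ones from 45.6% to 67.5%. Centring on 10 reference genes subtracted 0.09 and gave 7 higher and 1 lower, Eif2b5. Differences between -0.30 and 0.09 change sign under one of these centrings, among them those of Eef1a1, Eif4a2, Eif4b, Eif3k, Eif3c, Eif3i, Eif2a, Eif2b4, Eef2k and Eif4g3, and the medians of the eIF2 and eEF1 groups. Of the factors, only Eif4ebp1 was at least 2-fold higher under all 11 alternatives tried. Eif1a was so in every alternative that kept it (1.76 to 2.29), since leaving out suffixed probe sets removed both of its own. The kinase gene Eif2ak3, counted apart, was also at least 2-fold higher under all 11 (1.67 to 2.16).

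Hepatocyte markers were present on both arrays, which were labelled as liver: the summed signal of 6 markers such as Alb and Ttr was 451405 and 416702, and none of them passed 2-fold. Of 5 neutrophil markers past the filter 3 were at least 2-fold higher (S100a8, S100a9 and Ngp), and the summed signal of the 6 named ones was 1890.2 and 6549.4. Of 7 macrophage markers 1 was higher and 2 were lower, with sums of 11402.8 and 7690.2, and 0 of 4 kidney markers passed 2-fold. Of 5 stellate cell markers 0 were higher and 1, Lrat, was at least 2-fold lower, 4 lay below 0 and the median was -0.15. Their summed signal was 11549.9 and 17901.6, in which Dcn alone went from 7724.9 to 14722.2. S100a8, S100a9 and the higher macrophage marker, Marco, passed the filter on the AKI array only, and Lrat on the sham array only. None of these markers was listed at 0. Among all genes past the filter, 10.4% were at least 2-fold higher and 12.4% lower. The ratio of 3′ to 5′ signal, a sign of RNA integrity, was 1.61 and 2.24 for beta-actin and 0.86 and 1.05 for Gapdh. The part of cell composition or RNA quality in the differences of the factors was not tested. In a bulk sample, fewer cells of a type and less RNA per cell cannot be told apart.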

How the data were processed

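Per the labels' protocols, total RNA from liver pools was extracted with Trizol, and biotinylated cRNA from 8 ug of it was hybridised to Affymetrix arrays. The authors deposited 1 linear signal intensity for each probe set and array. The summary software and its settings are not given in the sources used here. The trimmed mean (2% at each end) was 500 on both arrays, so both share a common scale, on which a difference in total mRNA would not show. Of 45101 probe sets, 64 are controls, 34945 had 1 gene symbol in the platform annotation, 932 several and 9160 none. All 58 member genes matched a RefSeq gene (GRCm38.p6) under the same symbol. The value table names no build.

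The pseudocount, 71.8, is the 25th percentile of the table. The call was a 2-fold difference. Every member was accounted for in its complex. Both signals were given for members at least 2-fold apart, the highest and lowest of each complex, and the Eif2s, Eif4e, Eif4ebp and Eif2ak genes. Each other list gave up to 4 of the genes with the largest absolute difference. Other genes, such as Sesn3, Dnajc3 and Gspt1, and Eef2 among the printed windows, were named after their values were seen. Alternatives changed the pseudocount, filter, probe set choice and scaling. The members and lists were chosen with earlier results of these data known. Computation was tested on simulated data. The software was Python 3.11.15 with matplotlib 3.10.9, statsmodels 0.14.6, scipy 1.17.1, pandas 2.3.3 and numpy 2.4.6.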

Additional observations from a re-analysis of the deposited data

How the results depend on the processing

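The count of factor genes at least 2-fold higher was 8, and it was 4 with the mean of each gene's probe sets (Eif1a, Eif3e, Eif4a1 and Eif4ebp1) and 15 with centring on hybridization controls; elsewhere it was 6 to 9. The count at least 2-fold lower was 0, and it was 1 with a pseudocount of 1 (Eif2b5), without the level filter (Eef1akmt2), with the mean of probe sets (Eif4ebp2) and with centring on reference genes (Eif2b5). The median difference of the factors stayed above 0 throughout, from 0.16 to 0.55. Eif6 turned to -0.52 once probe sets with a suffix for shared probes were left out, and Eef1akmt1 to -0.50 with the mean of probe sets; in both, the gene's other probe sets carry the opposite sign. No paired analysis was possible because each group is 1 array. The number of arrays limits the precision, and no signal over background is given for weak probe sets such as those of Eif2ak4.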

Other observations

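Probe sets whose annotation names a factor together with another gene were left out of every count. The probe set shared by Ankhd1 and Eif4ebp3, the third 4E-binding protein gene, went from 3421.9 on the sham array to 1334.6 on the AKI array (-1.31), and which of these genes it measures was not tested. The probe set of Gm5576 and Eif4a3, the helicase of the exon junction complex, went from 1018.8 to 2697.2 (1.34), while the only probe set of Eif4a3 alone was near background at 60.4 and 55.6. The 3 probe sets shared by Eif3j1 and Eif3j2, copies of a loosely bound eIF3 subunit, were at 0.42, 1.00 and 1.58. That of Eef1g, the remaining eEF1 subunit, and Gm29753 was at 6277.4 and 5032.7 (-0.31). A probe set shared by Eif1a with Gm4027 and BB287469 was below the filter, at 96.7 and 139.7 (0.33).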
